A study of Mus musculus with 1753 samples.

Results

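Cluster 1 and cluster 6 are 2 groups of fibroblasts that the study assigned to the endomysium, the connective tissue around individual muscle fibres. They were sorted from adult mouse skeletal muscle and sequenced 1 cell at a time. The members were chosen by the cluster number in the sample labels, which gave 161 cells of cluster 1 and 231 cells of cluster 6, together 392 of the 1753 labelled muscle cells and of the 1116 cells in the endomysial clusters 1, 3, 5, 6 and 8. The mice were male, aged 10 to 20 weeks and on a C57BL6 background. Cells came from wild-type animals (C57BL6), from a PdgfrbGFP reporter line, from a pool of PdgfraGFP and PdgfrbGFP reporter muscle, and from Acta2GFP and Cspg4dsRED reporter lines. They were sorted for PDGFRα, PDGFRβ or a reporter and against the endothelial protein CD31, so Pdgfra and Pdgfrb were partly fixed by the gate. The labels name no animal, and the reporter lines report the activity of one promoter each, which mesenchymal cells other than fibroblasts also use.

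Fibroblasts build and remodel the extracellular matrix, and those of muscle also present growth factors, chemokines and complement proteins to the fibres, nerves and vessels around them. Across organs, fibroblasts that express Pi16 and Dpp4 are known for sitting in outer, fascial and adventitial layers, whereas fibroblasts that express Col15a1 are known for sitting among the parenchymal cells and for making basement membrane and vessel-associated matrix. These names are used here for 2 gene lists and not as a cell identity.

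Raw counts were summed per strain label and cluster, and the 3 strain labels with at least 3 cells on both sides were compared with strain as a block. They held 31 and 49 cells of cluster 1 and cluster 6 in C57BL6, 53 and 53 in the PdgfraGFP - PdgfrbGFP pool, and 70 and 81 in PdgfrbGFP. Summed libraries held 14289795 to 20868513 counts. Single cells held a median of 334153 counts in cluster 1 and 222727 in cluster 6, and all 392 columns differed from one another. Levels are log2 CPM, the counts of the summed library scaled to its depth with 2 prior counts, and are always given in the order C57BL6, pool, PdgfrbGFP. A fold change is cluster 1 over cluster 6 on the log2 scale from edgeR's quasi-likelihood fit, its SE is that of the 3 differences within strains, and called genes passed 0.05 after Benjamini-Hochberg adjustment. The authors defined both clusters from these same counts, so the calls describe the 2 clusters and are no independent test that they differ.

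The 250 bases before the first listed RefSeq start (GRCm38.p6) are shown for 4 genes whose call held in each of the 11 alternative settings. Tmem176a and Tmem176b, higher in cluster 6, are shown because they lie side by side in opposite directions and share part of this stretch, and Galnt16 and Efemp1 because they were among the clearest genes of cluster 1. Tmem176a is at chr6:48841233-48841482 on the plus strand, Tmem176b at chr6:48841138-48841387 on the minus strand, Galnt16 at chr12:80518221-80518470 on the plus strand and Efemp1 at chr11:28852955-28853204 on the plus strand. Capitals mark the TCF and LEF type motif CTTTGA, the Klf type motif CCACCC, the AP-1 type motif TGANTCA and the Sp1 type motif GGGCGG on either strand, and TATAAA was searched as well.
Tmem176a: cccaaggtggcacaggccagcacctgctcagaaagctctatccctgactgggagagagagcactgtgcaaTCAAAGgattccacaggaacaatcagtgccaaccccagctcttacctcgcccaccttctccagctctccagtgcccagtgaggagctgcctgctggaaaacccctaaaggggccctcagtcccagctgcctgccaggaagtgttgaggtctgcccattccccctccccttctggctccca
Tmem176b: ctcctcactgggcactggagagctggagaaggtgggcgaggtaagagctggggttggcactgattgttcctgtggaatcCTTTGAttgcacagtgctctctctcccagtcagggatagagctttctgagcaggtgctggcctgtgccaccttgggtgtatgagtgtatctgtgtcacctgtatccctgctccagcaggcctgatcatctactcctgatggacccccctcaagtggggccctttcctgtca
Galnt16: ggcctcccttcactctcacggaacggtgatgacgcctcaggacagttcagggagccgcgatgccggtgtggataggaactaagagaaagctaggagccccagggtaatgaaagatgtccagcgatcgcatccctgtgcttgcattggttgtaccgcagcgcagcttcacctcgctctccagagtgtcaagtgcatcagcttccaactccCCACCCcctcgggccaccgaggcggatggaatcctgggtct
Efemp1: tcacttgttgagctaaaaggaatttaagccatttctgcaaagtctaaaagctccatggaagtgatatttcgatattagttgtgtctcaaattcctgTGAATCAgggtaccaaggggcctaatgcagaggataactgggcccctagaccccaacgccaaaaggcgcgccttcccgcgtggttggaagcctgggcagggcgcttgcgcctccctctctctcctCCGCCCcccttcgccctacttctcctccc
The single CTTTGA of the Tmem176a stretch, on its minus strand, is the same 6 bases as the CTTTGA of the Tmem176b stretch. Of 10425 promoters of tested genes, 11.8% held CTTTGA, 36.8% CCACCC, 4.90% TGANTCA, 63.7% GGGCGG and 7.07% TATAAA in the 300 bases that reach 50 past the start. Promoters were matched for 118 of the 186 genes called higher in cluster 1 and 113 of the 172 called higher in cluster 6, which is under 80% of each set, so shares of motifs in the called genes were not read.

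Genes listed as endomysial fibroblast markers were present in both clusters. Their levels were not set against perimysial or paramysial clusters, so they cannot show a position in the endomysium. The paper anticipates that its endomysial clusters also hold fibroadipogenic progenitors and perivascular fibroblasts, and leaves this to further analysis. All 12 endomysial fibroblast markers passed the filter, and together they took 2.23% to 2.69% of the counts of the cluster 1 libraries and 2.59% to 2.98% of those of cluster 6. The major fibrillar collagen genes Col1a1, Col1a2 and Col3a1 had fold changes of -0.11, -0.05 and 0.12 and were not called. Decorin (Dcn), the proteoglycan that coats collagen fibrils, had a fold change of -0.21 and was not called. The fold change of Col1a1 and of Col1a2 turned positive with plates as the unit, that of Col1a2 also without C57BL6, and that of Col3a1 turned negative with 5 strains. Fbln1, Pdgfrb, Lum and Pdgfra were called higher in cluster 6 and Ly6a, the surface antigen Sca-1, higher in cluster 1. The shares over all genes tested were 1.13% and 1.22%.

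Both receptors of the sort were lower in cluster 1. Pdgfrb, the receptor for PDGF-B, stood at 7.25, 7.42 and 8.09 in cluster 1 and at 8.36, 8.42 and 9.19 in cluster 6, a fold change of -1.07 ± 0.04 (SE, n = 3, adjusted p = 0.0287). Pdgfra, which marks fibroblasts, stood at 9.39, 8.62 and 8.98 against 10.36, 9.29 and 10.01, a fold change of -0.89 ± 0.11 (SE, n = 3, adjusted p = 0.0332). Each strain showed the same direction, the libraries of the clusters overlapped for Pdgfra and not for Pdgfrb, and neither call held when any 1 strain was left out, without the strain block or with 5 strains. Of all member cells, 15 had no count of either receptor.

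Markers of other cell types were low in both clusters. Endothelial markers other than Tek took 0.000168% to 0.00297% of the counts in cluster 1 and 0.00226% to 0.00413% in cluster 6, mural markers 0.0157% to 0.0202% and 0.0201% to 0.032%, myofibre and satellite cell markers 0.0062% to 0.032% and 0.00996% to 0.0292%, immune markers 0.00142% to 0.00208% and 0.00069% to 0.00258%, and Schwann and perineurial markers 0.00306% to 0.00656% and 0.00571% to 0.0242%. No mural, immune, myofibre, adipocyte, mesothelial or paramysial marker was called, of 10, 4, 7, 1, 1 and 4 tested. With 2.34% of all genes tested called, so few markers make the lack of calls say little. With DESeq2, which called 11.8% of all genes tested, the call status of Cspg4, Notch3, Des, Krt19 and Postn changed. In cluster 1 the immune markers Ptprc, Fcer1g, Cd79a, Tyrobp and Cd3e and the satellite cell markers Pax7, Myod1 and Myf5 had no count, and in cluster 6 Fcer1g, Cd79a, Cd3e, Pax7, Myod1 and the Schwann cell factor Sox10 had none. Acta1, the skeletal actin gene of muscle fibres, had a fold change of -0.54 that was not called and that turned positive without C57BL6 and with 5 strains. The part of such RNA in the differences was not tested.

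Of 15268 genes tested, 358 were called, which is 2.34%. Of these, 186 (1.22% of the genes tested) were higher in cluster 1 and 172 (1.13%) in cluster 6. All 358 had the same direction in 3 of 3 strains, and 232 of them changed by 2 or more on the log2 scale. The median fold change of all genes tested was -0.0087. Leaving out the pool gave 90 calls, leaving out PdgfrbGFP 55 and leaving out C57BL6 296. Each of the 358 kept its direction in all 3 of these fits, which follows from the same direction in 3 of 3 strains. When the few cells of Acta2GFP and Cspg4dsRED were added as further strains, with as little as 1 cell in a library, 52 genes were called.

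The genes with the largest change in each direction were nearly absent from the opposite cluster. The 12 of cluster 1 were Adamts16, Lgi3, Dmkn, Cldn3, Sytl2, Fam167a, Cbln2, Car8, Asphd2, Galnt16, Slc6a2 and Gda. Of the 12 of cluster 6, the 11 described here were Rps6ka1, Kcng1, Cyp2f2, Klf5, Daam2, Mettl24, Arhgdib, Tmem255b, Meox1, Ednra and Cacna1g. None of the 183 cells of cluster 6 in the tested strains reached 100 counts per 500000 for any of the first 12 genes. None of the 154 cells of cluster 1 did for any of the second 11. With cells taken as independent, this allows shares of up to 1.64% and 1.95%, with no account of how the genes were chosen. The genes were picked by their fold change between these same cells, so the near absence followed in part from the choice of genes. Where they were present they were patchy: a cell had a median of 2 of its own cluster's genes above that level, with a highest of 8 in cluster 1 and 7 in cluster 6, and 14 cells of cluster 1 and 16 of cluster 6 had none.

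**Figure D1:**
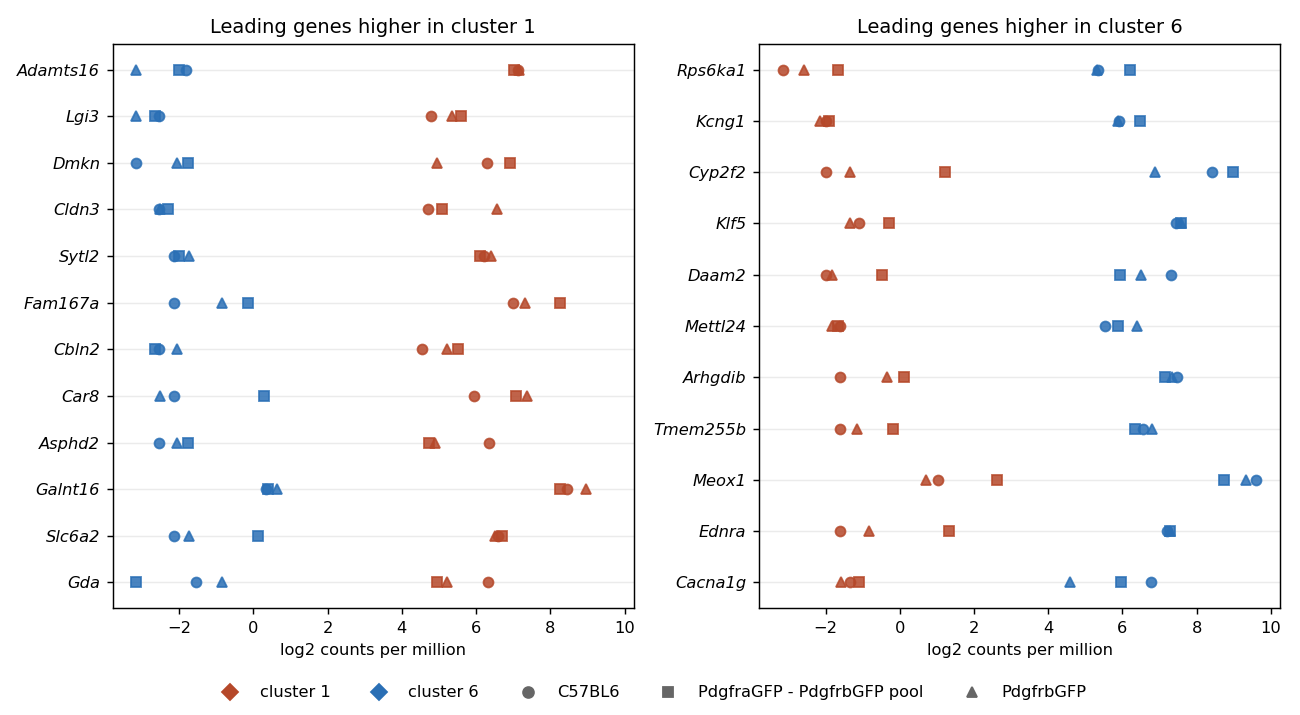
Log2 CPM of the 12 genes with the largest fold change in cluster 1 and of 11 of the 12 in cluster 6, with 1 point for each strain label and cluster (red, cluster 1; blue, cluster 6; the marker shape gives the strain). The points of the opposite cluster lie near or below 0 for most genes, Meox1 in cluster 1 being higher at 0.70 to 2.62. The clusters do not overlap for any gene shown, and the same direction in each strain was a condition of the choice of genes.

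Adamts16, a secreted metalloprotease, led cluster 1. Adamts16 (ENSMUSG00000049538, chr13:70727802-70841811, GRCm38) stood at 7.14, 7.02 and 7.16 in cluster 1 and at -1.81, -1.99 and -3.15 in cluster 6, from 7085 and 6 counts. The level hardly varied among strains in cluster 1, and with so few counts in cluster 6 its fold change of 10.26 ± 0.44 (SE, n = 3, adjusted p = 0.00539) depends on the prior count. It was above 100 counts per 500000 in 19.5% of cluster 1 cells and in none of cluster 6. Lgi3 had 2056 and 2 counts, a depth-scaled ratio of 1063 with an exact interval of 294 to 8781, which covers counting error only.

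Galnt16, an enzyme that starts O-linked glycosylation, was the most widely detected of the leading genes of cluster 1. Galnt16 (ENSMUSG00000021130, chr12:80518277-80630972) stood at 8.46, 8.27 and 8.97 in cluster 1 and at 0.34, 0.39 and 0.64 in cluster 6, and it passed the detection level in 57.1% of cluster 1 cells and in none of cluster 6. Its fold change was 8.23 ± 0.13 (SE, n = 3, adjusted p = 0.00113), and it stayed called in each of the 11 alternatives. Fam167a, of which little is known, stood at 6.99, 8.27 and 7.31 against -2.13, -0.16 and -0.86 and stayed called throughout as well.

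Klf5, a zinc-finger transcription factor, led cluster 6 among the genes that stayed called in every alternative. Klf5 (ENSMUSG00000005148, chr14:99298691-99315036) stood at -1.10, -0.28 and -1.35 in cluster 1 and at 7.44, 7.58 and 7.58 in cluster 6, a fold change of -8.71 ± 0.31 (SE, n = 3, adjusted p = 0.0029). Its 24 counts in cluster 1 against 10205 in cluster 6 came from 0 and 26.8% of cells above the detection level. Cyp2f2, a cytochrome P450 of xenobiotic metabolism (ENSMUSG00000052974, chr7:27119909-27133660), stood at -1.98, 1.23 and -1.35 against 8.41, 8.98 and 6.89, a fold change of -8.80 ± 0.81 (SE, n = 3, adjusted p = 0.00694). It varied more among strains than Klf5 in both clusters, its call was lost in 1 alternative, and 13.5% of its exonic bases overlap the antisense gene Gm15883, whose reads could not be told apart without strand.

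Meox1, a homeobox factor of the somite lineage, was the most widely detected leading gene of cluster 6. Meox1 (ENSMUSG00000001493, chr11:101877510-101894374) stood at 1.02, 2.62 and 0.70 in cluster 1 and at 9.61, 8.74 and 9.32 in cluster 6, and passed the detection level in 66.7% of cluster 6 cells and none of cluster 1. Its fold change was -7.79 ± 0.83 (SE, n = 3, adjusted p = 0.0104). Its relative Meox2 was present in both clusters, at 6.86, 7.36 and 7.96 against 9.71, 9.59 and 9.84, a fold change of -2.32 ± 0.28 (SE, n = 3, adjusted p = 0.0113).

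Smpd3, Sbsn and Sfrp5 are among the names attached to these clusters. Smpd3, a sphingomyelinase, stood at 8.96, 8.74 and 7.47 in cluster 1 and at 0.20, 4.32 and 2.31 in cluster 6, and was not called (fold change 5.90 ± 1.34, SE, n = 3, adjusted p = 0.0544). Smpd3 passed the threshold in 6 of the 11 alternatives, among them DESeq2, plates as the unit and the fit without C57BL6. Sbsn, a secreted protein of the epidermis, stood at 6.18, 7.77 and 6.90 against 2.41, 3.33 and 3.09 and was called (fold change 4.03 ± 0.22, SE, n = 3, adjusted p = 0.00855). Sfrp5, a secreted Wnt antagonist, did not pass the filter. Of its 932 counts in cluster 6, 926 came from the pool, where 1.89% of cells passed the detection level.

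The 33 listed genes of Pi16 and Dpp4 type fibroblasts were higher in cluster 1 almost throughout. All 33 passed the filter, 25 were called higher in cluster 1 and none in cluster 6, against 1.22% and 1.13% of all genes tested. The median fold change was 3.84 against -0.0087 over all genes tested. The number called was 23 to 31 in the alternatives that kept the 3 strains as they are, 9 with 5 strains, and 11, 13 and 26 when the pool, PdgfrbGFP or C57BL6 was left out. The list was chosen with earlier results of these data known, so its count is not independent evidence.

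Among the members that define this list, the protease Dpp4 (ENSMUSG00000035000, chr2:62330073-62412231) stood at 9.54, 9.13 and 9.49 in cluster 1 and at 1.31, 1.91 and 5.20 in cluster 6. Its fold change was 6.62 ± 1.18 (SE, n = 3, adjusted p = 0.0338). Pi16, a secreted peptidase inhibitor family member (ENSMUSG00000024011, chr17:29317680-29330593), stood at 10.73, 11.45 and 12.11 against 5.40, 8.28 and 8.93, a fold change of 3.86 ± 0.72 (SE, n = 3, adjusted p = 0.0278). Dpp4 divided the cells more sharply than Pi16 at the detection level, with 76.6% against 2.19% of cells for Dpp4 and 97.4% against 33.9% for Pi16. Cluster 6 was lowest for both genes in C57BL6.

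Among the other called members of the list were some surface proteins and receptors, beside secreted and intracellular proteins such as Sema3c and Creb5. The complement regulator Cd55 stood at 8.99, 9.42 and 9.60 against 5.99, 5.73 and 7.06 (fold change 3.08 ± 0.34, SE, n = 3, adjusted p = 0.00927). Procr, the endothelial protein C receptor, stood at 9.78, 9.78 and 9.24 against 6.05, 6.22 and 5.32 (fold change 3.73 ± 0.10, SE, n = 3, adjusted p = 0.00208). The atypical chemokine receptor Ackr3, which takes up Cxcl12, stood at 10.99, 10.58 and 11.02 against 7.93, 7.48 and 8.31 (fold change 2.96 ± 0.12, SE, n = 3, adjusted p = 0.00233). For these 3 genes the lowest library of cluster 1 lay above the highest of cluster 6.

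The 8 members of the list that were not called were Uchl1, Smpd3, Limch1, Has1, Opcml, Wnt2, Igfbp6 and Tppp3, with fold changes of 6.89, 5.90, 4.25, 4.17, 2.53, 2.03, 0.29 and 0.04. Igfbp6 and Tppp3 were widely detected in both clusters. Wnt2, a secreted Wnt ligand, was at -0.90, 6.01 and 5.62 in cluster 1 and at -2.56, 3.29 and 4.68 in cluster 6, so the strains differed more than the clusters did. Opcml and Has1 varied by more than 2 on the log2 scale (SD, n = 3) among the cluster 6 libraries. The sign of Tppp3 turned in 4 alternatives, among them the fit without C57BL6.

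Of the 19 listed genes of Col15a1 type fibroblasts, 13 were called higher in cluster 6 and 1 in cluster 1. The shares over all genes tested were 1.13% and 1.22%. The median fold change of the list was -1.74. The number called higher in cluster 6 was 3 with 5 strains, and 7, 3 and 10 when the pool, PdgfrbGFP or C57BL6 was left out. Col15a1 itself, a basement-membrane collagen, stood at 3.25, 3.78 and 1.93 in cluster 1 and at 7.22, 7.34 and 6.86 in cluster 6, a fold change of -4.16 ± 0.41 (SE, n = 3, adjusted p = 0.0124). The cluster 6 libraries lay close together and all above those of cluster 1.

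Smoc2, a matricellular calcium-binding protein (ENSMUSG00000023886, chr17:14279506-14404790), stood at 8.85, 8.86 and 9.29 against 11.49, 11.39 and 12.17, a fold change of -2.68 ± 0.10 (SE, n = 3, adjusted p = 0.00208). It was a difference of degree, since 53.2% of cluster 1 cells and 97.8% of cluster 6 cells passed the detection level. Gdf10, a ligand of the BMP family (ENSMUSG00000021943, chr14:33923587-33937983), stood at 5.60, 6.64 and 5.39 against 10.09, 10.06 and 9.49, a fold change of -4.00 ± 0.31 (SE, n = 3, adjusted p = 0.00436). Apod, a lipid-binding lipocalin, stood at 8.52, 8.02 and 7.78 against 10.97, 10.68 and 10.77, a fold change of -2.70 ± 0.16 (SE, n = 3, adjusted p = 0.00371). Gdf10 and Apod stayed called in each of the 11 alternatives.

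The other called members were the opioid precursor Penk, Sparcl1, Cxcl12, Meox1, Meox2, Podn, Lpl and the collagen IV chains Col4a1 and Col4a2. Nid1, the nidogen that links laminin to collagen IV, went the other way, at 11.03, 11.55 and 11.46 in cluster 1 against 9.86, 10.22 and 10.18 (fold change 1.26 ± 0.05, SE, n = 3, adjusted p = 0.00539). The members not called were Ret, Mme, Hsd11b1, Hspg2 and Apoe, with fold changes of 2.99, 0.92, 0.54, 0.19 and -1.53, and the signs of Mme and Hspg2 turned without the pool and that of Hsd11b1 with plates as the unit.

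**Figure D2:**
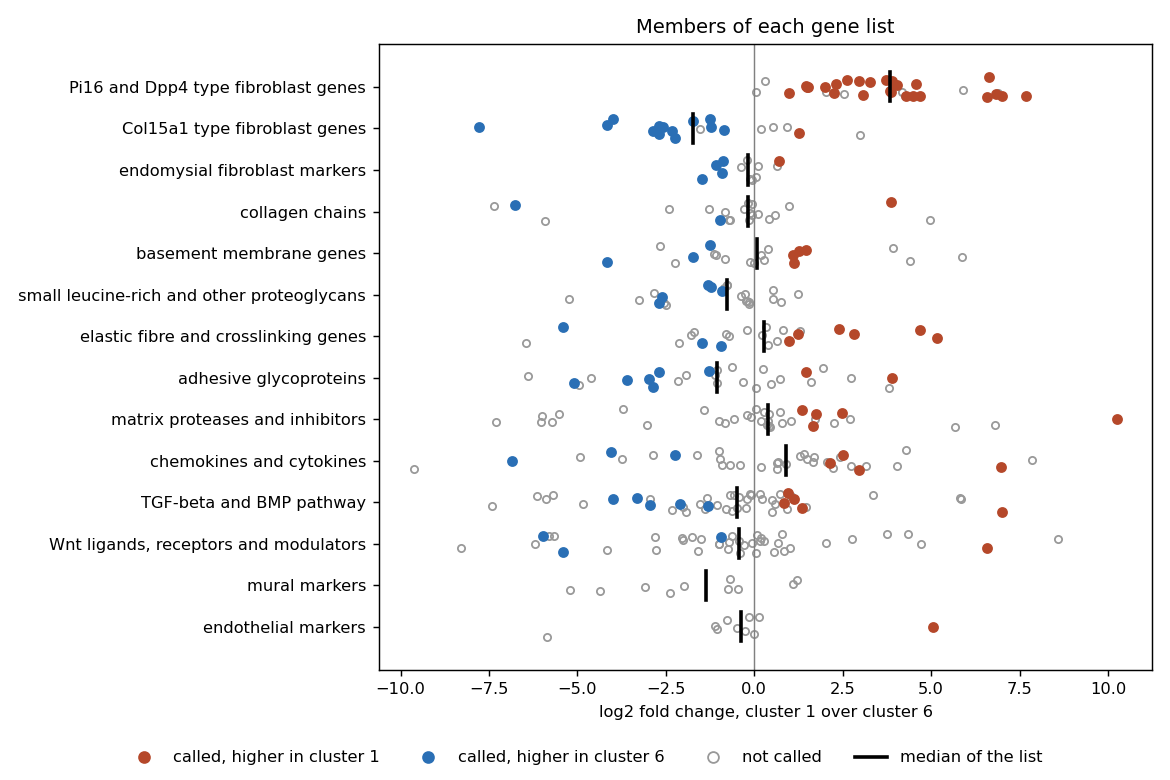
Log2 fold change, cluster 1 over cluster 6, of the members of 14 gene lists, 1 point per gene tested (red, called higher in cluster 1; blue, called higher in cluster 6; open grey, not called) with the median of each list as a black bar. The called genes of the Pi16 and Dpp4 type list lie to the right of 0, 13 of the 14 of the Col15a1 type list lie to the left, and most matrix and signalling lists hold called genes on both sides.

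The same 2 lists were read in single cells as the percent of a cell's counts. Over all 5 strains the Pi16 and Dpp4 type list had a median of 3.39% in cluster 1, with a range of 1.62% to 5.57%, and of 0.795% in cluster 6, with a range of 0.134% to 2.40%. The Col15a1 type list had a median of 0.650% in cluster 1, with a range of 0.131% to 1.496%, and of 1.85% in cluster 6, with a range of 0.222% to 4.25%. The cells of the clusters thus overlapped in range on each list alone. In all 161 cells of cluster 1 the first list was larger, and in 19 of the 231 cells of cluster 6 it was larger too, 10 of them among the 46 Cspg4dsRED cells and none among the 49 C57BL6 cells. Since the clusters were built from these genes, this is a description of how far apart they lie.

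**Figure D3:**
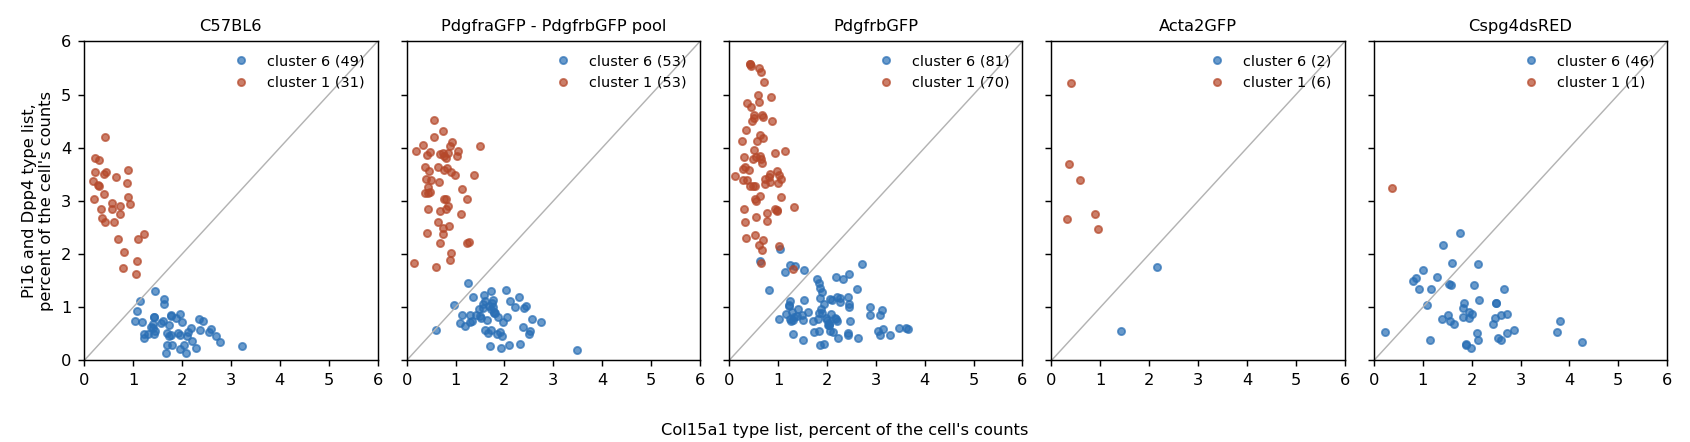
Percent of each cell's counts in the Pi16 and Dpp4 type list (vertical axis) against the Col15a1 type list (horizontal axis), 1 point per cell, in a panel for each strain label with the number of cells in the legend (red, cluster 1; blue, cluster 6; the grey line marks equal shares). All cluster 1 cells lie above the line and 212 of the 231 cluster 6 cells on or below it.

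Matrix genes changed in both directions. Of 22 elastic fibre and crosslinking genes tested, 6 were called higher in cluster 1 and 3 in cluster 6. The shares over all genes tested were 1.22% and 1.13%. The median fold change of the list was 0.28. Efemp1 (fibulin-3, ENSMUSG00000020467, chr11:28853204-28926743) stood at 10.79, 10.83 and 10.77 in cluster 1 and at 5.32, 5.48 and 6.09 in cluster 6, a fold change of 5.17 ± 0.25 (SE, n = 3, adjusted p = 0.00208). It passed the detection level in 95.5% of cluster 1 and 6.56% of cluster 6 cells, and stayed called in every alternative. Emilin2, an elastin-associated glycoprotein, stood at 9.49, 9.83 and 10.08 against 3.92, 6.27 and 5.21 (fold change 4.67 ± 0.59, SE, n = 3, adjusted p = 0.0114).

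Fbn1, the microfibril protein fibrillin-1, stood at 11.33, 11.85 and 11.71 against 9.27, 8.87 and 9.53 (fold change 2.41 ± 0.29, SE, n = 3, adjusted p = 0.00927), and 20.1% of its exonic bases overlap the antisense gene Gm9913. Ltbp1, Loxl1 and Mfap5 were also called higher in cluster 1. In the opposite direction Fbln7, with a fold change of -5.40, Fbln1, with -1.47, and Ltbp4, with -0.93, were called higher in cluster 6. Members of the fibulin family therefore stood on both sides.

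Of 26 adhesive glycoproteins tested, 2 were called higher in cluster 1 and 6 in cluster 6, against 1.22% and 1.13% of all genes tested. The median fold change of the list was -1.05. Fn1, fibronectin (ENSMUSG00000026193, chr1:71585520-71653200), stood at 11.80, 11.77 and 11.82 in cluster 1 and at 8.05, 7.24 and 8.39 in cluster 6, a fold change of 3.90 ± 0.33 (SE, n = 3, adjusted p = 0.00436). All 154 cluster 1 cells and 20.2% of cluster 6 cells passed the detection level. Comp, the cartilage oligomeric matrix protein that is abundant in tendon (ENSMUSG00000031849, chr8:70373558-70382066), stood at 3.56, 4.17 and 4.27 against 8.85, 9.40 and 8.98, a fold change of -5.09 ± 0.18 (SE, n = 3, adjusted p = 0.00208).

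Comp was above the detection level in 27.3% of cluster 6 cells. It was the 1 of 12 perimysial and tendon markers that was called, against 2.34% of all genes tested. The other 11 were not called, among them Scx, Fmod, Thbs4, Thbs1, Tnmd and Chodl at 0.03, -0.26, -1.10, -2.16, -2.22 and -3.26. The median of the list was -0.94. In all 3 strains 6 members, Comp among them, were higher in cluster 6 and 0 in cluster 1. Of the 15268 genes tested, 3056 were higher in cluster 6 and 2857 in cluster 1 in all 3 strains. With Comp, the list took 0.0238% to 0.0472% of the counts in cluster 1 and 0.0962% to 0.135% in cluster 6. Fn1 and Comp stayed called in each alternative. The remaining called adhesive genes were Tnxb, higher in cluster 1, and Svep1, Smoc2, Sparcl1, Ccn5 and Fgl2, higher in cluster 6.

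Of 23 proteoglycan genes tested, 5 were called higher in cluster 6 and none in cluster 1, against 1.13% and 1.22% of all genes tested. The median fold change of the list was -0.76. Biglycan (Bgn) stood at 7.93, 9.29 and 9.86 against 11.41, 11.48 and 12.30 (fold change -2.70 ± 0.40, SE, n = 3, adjusted p = 0.0138). Lubricin (Prg4), the boundary lubricant of gliding surfaces, stood at 7.39, 8.85 and 8.20 against 10.60, 10.92 and 10.73 (fold change -2.60 ± 0.33, SE, n = 3, adjusted p = 0.0107). The others were Lum, Podn and Ecm2. For Bgn and Prg4 the lowest cluster 6 library lay above the highest of cluster 1.

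Of 21 collagen chains tested, Col6a6 was called higher in cluster 1, and Col6a3 and Col8a2 higher in cluster 6. For this list and the next 2, the shares over all genes tested were 1.22% and 1.13%. Of 20 basement membrane genes tested, 4 were called higher in cluster 1 (Lama4, Nid1, Lamc1 and Lamb1) and 3 in cluster 6 (Col15a1, Col4a2 and Col4a1). Lama4 had a fold change of 1.45, Lamc1 of 1.12 and Lamb1 of 1.10, against -1.74 for Col4a2 and -1.25 for Col4a1. These calls were lost in 3 alternatives for Lama4 and Col4a2, 4 for Lamc1, 5 for Lamb1 and 6 for Col4a1, of 11 each. Chains that were not called also lay on both sides, such as Lama5 at -2.68 and Col4a6 at 5.87. Of 34 matrix proteases and inhibitors tested, 5 were called, all higher in cluster 1: Adamts16, Adamtsl4, Adamts5, Mmp23 and Adamtsl5.

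Signals and their receptors also divided. Of 35 chemokine and cytokine genes tested, 4 were called higher in cluster 1 (Cxcl13, Ackr3, Ackr2 and Il33) and 3 in cluster 6 (Cxcl12, Cxcl14 and Cx3cl1). The shares over all genes tested were 1.22% and 1.13%. Cxcl12, the ligand bound by Ackr3, stood at 7.81, 7.16 and 7.76 in cluster 1 and at 9.76, 9.89 and 9.78 in cluster 6, a fold change of -2.24 ± 0.25 (SE, n = 3, adjusted p = 0.0104). The ligand was thus the higher in the cluster where the receptor Ackr3 was the lower. Cxcl13, a B-cell attractant, stood at 7.63, 6.26 and 4.10 against -0.22, -0.80 and -0.86 (fold change 6.98 ± 0.86, SE, n = 3, adjusted p = 0.0165), and varied among the cluster 1 libraries. Il33, an alarmin, had a fold change of 2.14.

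Of 18 complement genes tested, 2 were called in each direction, against 1.22% (cluster 1) and 1.13% (cluster 6) of all genes tested. The median fold change of the list was -0.06. C3 and Cd55 were those higher in cluster 1, and Clu was among those higher in cluster 6. C3, the central complement component (ENSMUSG00000024164, chr17:57203970-57228136), stood at 11.45, 11.12 and 11.67 against 7.91, 7.58 and 8.05, a fold change of 3.57 ± 0.03 (SE, n = 3, adjusted p = 0.00113). The 3 differences within strains were nearly equal. Clu, the soluble complement inhibitor clusterin, stood at 3.78, 5.20 and 5.48 against 10.28, 8.63 and 9.91 (fold change -4.75 ± 0.90, SE, n = 3, adjusted p = 0.0326). The call of Clu was lost without the pool and without PdgfrbGFP. The membrane-bound inhibitor Cd55 and the soluble inhibitor Clu therefore had opposite directions.

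Of 45 TGF-beta and BMP pathway genes tested, 5 were called in each direction, against 1.22% (cluster 1) and 1.13% (cluster 6) of all genes tested. Bmp7, a ligand, stood at 5.15, 5.90 and 6.29 in cluster 1 and at -1.54, -0.49 and -0.70 in cluster 6 (fold change 7.02 ± 0.18, SE, n = 3, adjusted p = 0.011). The others higher in cluster 1 were the procollagen protease Bmp1, the receptors Tgfbr2 and Tgfbr3, and Fstl1. Those higher in cluster 6 were the ligands Gdf10 and Bmp5, the activin inhibitor Fst, and Id1 and Id2, which are known targets of BMP signalling. Id1 had a fold change of -3.30 and Id2 of -2.09.

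Of 41 genes tested in the Wnt list, Dact2 was called higher in cluster 1, and Nkd2, Dkk3 and Tcf4 higher in cluster 6. The shares over all genes tested were 1.22% and 1.13%. Tcf4 is the gene of an E-protein and not of the Wnt effector Tcf7l2, which had a fold change of 0.17 and was not called. The call of Tcf4 was lost in 6 of the 11 alternatives. Dact2 and Nkd2 are intracellular modulators and Dkk3 is a secreted member of the Dickkopf family. Dact2 stood at 0.86, 7.85 and 7.60 in cluster 1 and at -2.56, 1.66 and 0.39 in cluster 6, with C57BL6 lowest on both sides. Dkk3 stood at 0.14, 2.27 and 1.82 against 5.62, 7.41 and 7.25 (fold change -5.41 ± 0.11, SE, n = 3, adjusted p = 0.00492). The C57BL6 library was the lowest of both clusters for Dkk3 as well.

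Of 49 growth factors, binding proteins and receptors tested, 3 were called higher in cluster 1 and 8 in cluster 6. The shares over all genes tested were 1.22% and 1.13%. Those of cluster 6 included Pdgfrl, with a fold change of -4.26, Igfbp3, with -2.62, Igfbp7, with -1.75, and the ligands Angpt4 and Ptn, with -6.42 and -6.21. Igfbp4 was called higher in cluster 1, with a fold change of 1.77, so the insulin-like growth factor binding proteins also stood on both sides. Tek, the receptor of the angiopoietins that is known mainly from endothelium, stood at 8.64, 8.12 and 8.59 in cluster 1 and at 2.54, 2.61 and 5.15 in cluster 6 (fold change 5.05 ± 0.81, SE, n = 3, adjusted p = 0.0244). Tek passed the detection level in 56.5% of cluster 1 cells, and the other 9 endothelial markers were not called. The angiopoietin Angpt4 was the higher in the cluster where its receptor Tek was the lower.

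A ligand and receptor of another family had the same arrangement. Gas6, the ligand of Axl, stood at 6.44, 6.65 and 6.68 in cluster 1 and at 9.86, 9.69 and 9.76 in cluster 6 (fold change -3.19 ± 0.12, SE, n = 3, adjusted p = 0.0029). Axl, a receptor tyrosine kinase, stood at 10.99, 11.32 and 11.29 against 9.38, 9.72 and 9.91 (fold change 1.53 ± 0.07, SE, n = 3, adjusted p = 0.0048). Both stayed called in each of the 11 alternatives. The pairs Gas6 and Axl, Angpt4 and Tek, and Cxcl12 and Ackr3 were picked after their values were seen, and no count of such pairs was tested.

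Of 35 guidance and adhesion genes tested, 3 were called in each direction, against 1.22% (cluster 1) and 1.13% (cluster 6) of all genes tested. Sema3c, a secreted semaphorin, stood at 9.69, 10.23 and 10.02 in cluster 1 and at 5.18, 6.25 and 7.00 in cluster 6 (fold change 3.84 ± 0.44, SE, n = 3, adjusted p = 0.00927). Sema3b stood at 8.22, 7.65 and 7.78 against 1.84, 0.67 and 2.80 (fold change 6.15 ± 0.59, SE, n = 3, adjusted p = 0.00927). Nrp1, a receptor subunit for class 3 semaphorins, was called higher in cluster 6, with a fold change of -2.20, together with Sema5a and Epha4.

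Retinoid, steroid and xenobiotic enzymes held 3 genes called higher in cluster 1 and 6 in cluster 6, of 40 tested. The shares over all genes tested were 1.22% and 1.13%. Aldh1a3, which makes retinoic acid, stood at 6.56, 7.71 and 8.67 in cluster 1 and at -0.66, 0.75 and 2.53 in cluster 6 (fold change 6.84 ± 0.32, SE, n = 3, adjusted p = 0.00408). Cyp26b1, which degrades retinoic acid, and Dhrs3, which reduces retinal, were called higher in cluster 6, with fold changes of -3.97 and -3.22. The call of Cyp26b1 was lost in 6 of the 11 alternatives, that of Dhrs3 in 2 and that of Aldh1a3 in 1. Rarres2 was called higher in cluster 1, and 33.6% of its exonic bases overlap the antisense gene Lrrc61.

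Transcription factors beyond Klf5 and Meox1 divided likewise. Of 49 fibroblast transcription factors tested, Creb5 was called higher in cluster 1, and Meox1, Meox2, Prrx2 and Nfib higher in cluster 6. For this list and the next, the shares over all genes tested were 1.22% and 1.13%. Creb5 stood at 9.17, 8.93 and 8.88 against 3.51, 4.67 and 5.30 (fold change 4.49 ± 0.61, SE, n = 3, adjusted p = 0.0145). Of 30 immediate early and stress genes tested, Klf2 and Klf6 were called higher in cluster 1, with fold changes of 2.11 and 1.24, and the median of that list was -0.03. The list took 0.883% to 2.04% of the counts in cluster 1 and 1.10% to 1.58% in cluster 6, so its summed level did not separate the clusters.

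The remaining lists were small or mixed. Of 34 adipogenic and lipid genes tested, 4 were called in each direction, against 1.22% (cluster 1) and 1.13% (cluster 6) of all genes tested. Among them were Ptgs2 and Klf4 in cluster 1 and Klf5, Lpl and Ptges in cluster 6. The call of Ptgs2 was lost in 6 of the 11 alternatives, those of Klf4, Lpl and Ptges in 5 each and that of Klf5 in 0. Of 31 interferon response genes 1 was called, Ifi27l2a, against 2.34% of all genes tested, and its call was lost in 6 of the 11 alternatives. Cldn1, a tight junction protein of the perineurium, was the 1 of 8 Schwann and perineurial genes called, against 2.34% of all genes tested. Cldn1 stood at -3.15, 0.04 and -1.83 in cluster 1 and at 4.01, 7.15 and 3.44 in cluster 6. Only 3.83% of cluster 6 cells passed the detection level for Cldn1.

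The genes that stayed called in the fit and in each of the 11 alternatives numbered 22, of which 10 were higher in cluster 1 and 12 in cluster 6. Those of cluster 1 were Galnt16, Efemp1, Fam167a, Adgrd1, Pamr1, Fn1, Axl, Zyx, Cd55 and Anxa3. Those of cluster 6 were Tmem176a, Tmem176b, Comp, Cygb, Gas6, Klf5, Apod, Colec12, Gdf10, Igfbp7, Cdh11 and Cpxm2. This set was chosen after the values were seen.

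Tmem176a and Tmem176b, a pair of adjacent genes for membrane proteins whose promoter stretches are printed above, moved together. Tmem176a (ENSMUSG00000023367, chr6:48840919-48847071) stood at 1.07, 0.17 and 0.36 in cluster 1 and at 8.16, 7.62 and 7.41 in cluster 6 (fold change -7.30 ± 0.13, SE, n = 3, adjusted p = 0.00208). Tmem176b (ENSMUSG00000029810, chr6:48833818-48841496) stood at 3.82, 2.24 and 2.98 against 9.31, 8.80 and 8.94 (fold change -6.02 ± 0.31, SE, n = 3, adjusted p = 0.0029). Tmem176b was the more widely detected, in 58.5% of cluster 6 cells against 34.4% for Tmem176a, and their exons overlap over 3.42% of Tmem176b.

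Of the others, Adgrd1, an adhesion G protein-coupled receptor, stood at 10.00, 10.11 and 9.99 in cluster 1 and at 6.00, 6.49 and 6.80 in cluster 6. Zyx, the focal adhesion protein zyxin, stood at 9.70, 9.80 and 9.65 against 6.71, 6.10 and 6.82. Cygb, the oxygen-binding cytoglobin, stood at 7.47, 7.74 and 8.05 against 10.09, 10.32 and 10.47. In each of these 3 genes the clusters were further apart than any strains within a cluster. Cdh11, a cadherin of mesenchymal cells, stood at 1.29, 2.73 and -0.25 against 8.27, 8.32 and 7.91, and passed the detection level in 0.649% of cluster 1 cells and 41.0% of cluster 6 cells.

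Clusters 3 and 8, a pair of further endomysial clusters, placed these genes differently from one another. The remaining endomysial cluster, cluster 5, was not included. Levels over the 3 strains, with no test, are given as mean ± SD (n = 3) on the scale of a fit to all clusters. Adamts16 was at 7.13 ± 0.10 in cluster 1, and at -0.72 ± 1.15 in cluster 3 and -1.44 ± 0.22 in cluster 8. Galnt16 was graded, at 8.59 ± 0.39 in cluster 1, 7.11 ± 0.15 in cluster 3, 5.34 ± 1.26 in cluster 8 and 0.57 ± 0.15 in cluster 6.

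Klf5 was at 7.57 ± 0.06 in cluster 6, at 6.33 ± 0.66 in cluster 8 and at 1.06 ± 2.05 in cluster 3. Comp was at 9.11 ± 0.27 in cluster 6 and at 8.80 ± 0.99 in cluster 8, 2 levels that did not differ beyond their spread. Among the clusters compared, Klf5, Cyp2f2, Comp and Gdf10 were thus high in clusters 6 and 8. Col15a1 was at 8.25 ± 0.32 in cluster 3, 7.56 ± 0.19 in cluster 8 and 7.18 ± 0.25 in cluster 6. Smoc2 was at 12.17 ± 0.29 in cluster 3 and at 11.72 ± 0.43 in cluster 6.

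**Figure D4:**
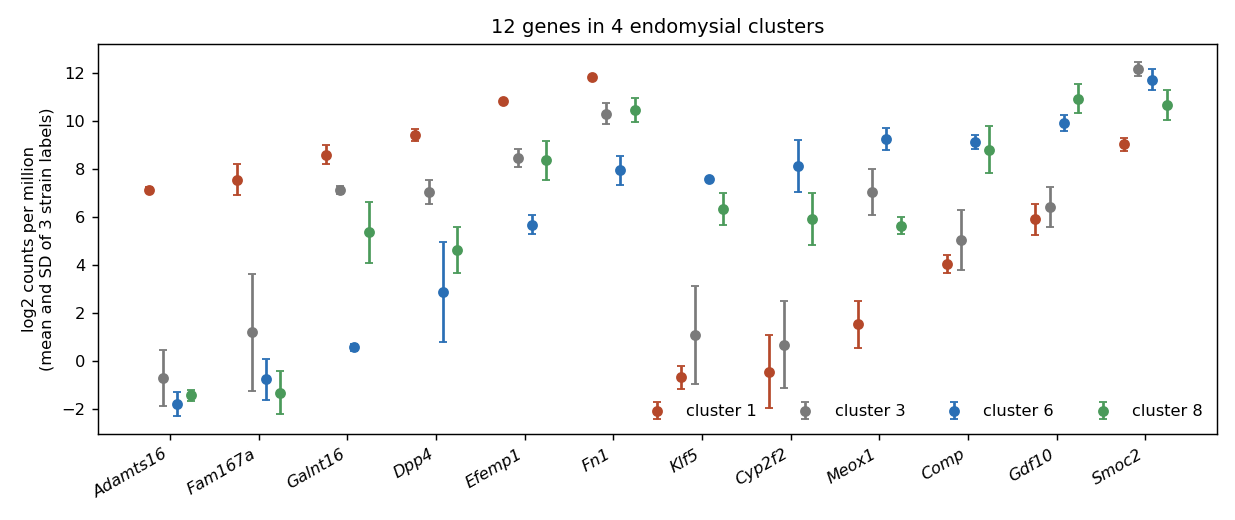
Log2 CPM of 12 genes in the endomysial clusters 1 (red), 3 (grey), 6 (blue) and 8 (green), as the mean and SD of the 3 strain labels. Adamts16 and Fam167a lie above 7 in cluster 1 alone, Galnt16, Dpp4, Efemp1 and Fn1 lie between the extremes in clusters 3 and 8, and Klf5, Cyp2f2, Comp and Gdf10 are high in clusters 6 and 8.

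The share of the clusters differed by strain label. Among endomysial cells, cluster 1 made up 14.8% of 209 cells in C57BL6 (exact 95% interval 10.3% to 20.4%), 17.5% of 302 in the pool (13.4% to 22.3%) and 14.2% of 494 in PdgfrbGFP (11.2% to 17.6%). Cluster 6 made up 23.4% (17.9% to 29.8%), 17.5% (13.4% to 22.3%) and 16.4% (13.2% to 20.0%). The intervals overlap among the 3 strains, and no test was made. They cover counting error only.

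Cspg4dsRED stood apart. Of its 51 endomysial cells, 46 were in cluster 6 (90.2%, 78.6% to 96.7%) and 1 in cluster 1 (1.96%, 0.0496% to 10.4%). In Acta2GFP 6 of 60 were in cluster 1 (10%, 3.76% to 20.5%) and 2 in cluster 6 (3.33%, 0.406% to 11.5%). Each of these strains was sorted by its own reporter, so strain, gate and plate cannot be told apart. The reporter gene Cspg4, a proteoglycan of mural cells, stood at -1.62, 2.23 and 4.45 in cluster 1 and at 6.55, 6.04 and 6.62 in cluster 6 of the 3 strains in the fit, where it was not called (fold change -4.36 ± 1.79, SE, n = 3, adjusted p = 0.242).

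**Figure D5:**
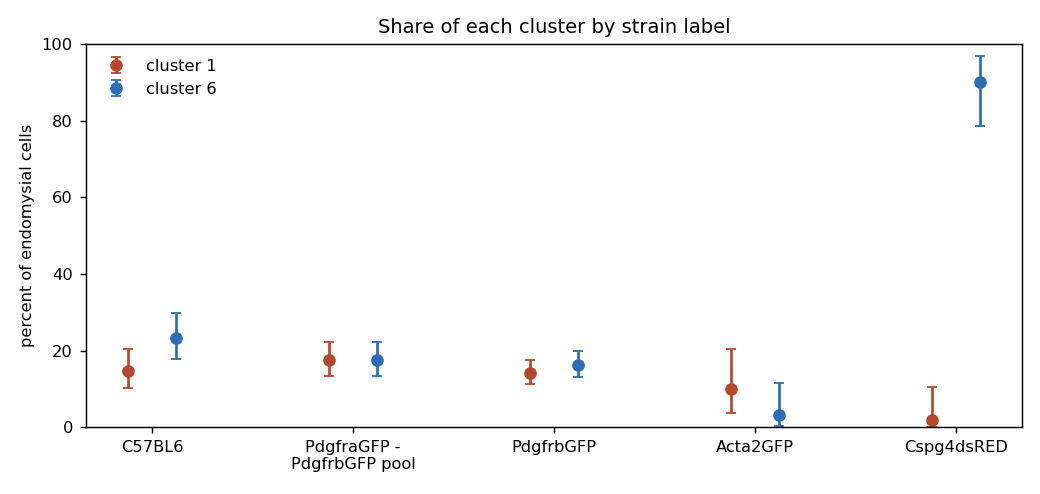
Share of cluster 1 (red) and cluster 6 (blue) among the endomysial cells of each strain label, in percent, with exact 95% binomial intervals. Cluster 6 made up 90.2% of the endomysial Cspg4dsRED cells, and the shares of the other 4 strain labels lie between 3.33% and 23.4%.

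Muscles were labelled for part of the cells. In the gastrocnemius of the pool cluster 1 made up 16.5% of 194 endomysial cells and in its soleus 19.4% of 108, and in the gastrocnemius of PdgfrbGFP it made up 14.3% of 112. In the soleus of PdgfrbGFP 0 of 90 endomysial cells were in cluster 1, which allows a share of up to 3.33%, while cluster 6 made up 14.4% there. The intervals of cluster 1 in the soleus of these labels do not overlap (0% to 4.02% against 12.5% to 28.2%), with 1 plate of each.

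The cells of Acta2GFP and Cspg4dsRED took no part in the fit, although they did take part in the clustering. With 10 or more counts in these cells, 160 of 172 genes called higher in cluster 1 were higher there in Acta2GFP (93.0%) and 89 of 142 in Cspg4dsRED (62.7%), against 63.4% and 19.04% of all genes tested. Of the genes called higher in cluster 6, 85.2% of 142 and 92.9% of 169 were not higher in cluster 1, against 36.6% and 81.0% of all genes tested. These rest on 6 and 2 cells in Acta2GFP and on 1 and 46 cells in Cspg4dsRED. In the 46 cells Meox1 passed the detection level in 69.6%, Smoc2 in 93.5%, Gdf10 in 56.5%, Comp in 41.3%, Klf5 in 32.6% and Cspg4 in 37.0%, and Dpp4 in 0 of 46.

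Cells of cluster 1 held more counts and genes in C57BL6 and PdgfrbGFP and fewer in the pool, with median counts of 456080 against 329203, 259880 against 175081 and 347556 against 376840. The medians over all members include the 46 Cspg4dsRED cells of cluster 6, with a median of 105230 counts. The median number of genes per cell, averaged over the 3 strains, was 4863 ± 462 in cluster 1 and 4587 ± 794 in cluster 6 (SD, n = 3), and 3365 ± 312 and 3083 ± 428 after each cell was thinned to 50000 counts. Within strains the thinned medians were 3028 against 2600 in C57BL6, 3644 against 3418 in the pool and 3422 against 3230 in PdgfrbGFP. The clusters overlapped across strains, while the thinned median of cluster 1 was the higher in each strain. Ribosomal protein genes took a median of 2.21% of a cell's counts in cluster 1 and 1.64% in cluster 6, and mitochondrial genes 1.19% and 1.30%. Their part in the differences above was not tested.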

How the data were processed

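Single cells were sorted into plates and sequenced with Smart-seq2, which has no molecular identifiers, so intervals cover counting error only. The deposited table holds whole-number counts per gene, which the authors made with bcl2fastq, Trim Galore, TopHat2 with Bowtie or Bowtie2 on GRCm38, and featureCounts, and the authors also filtered and clustered the cells with pagoda2. The strand setting of the counting is not given in the sources used here. The extraction label names heart, while the tissue label names skeletal muscle.

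Of 1754 columns, 1 without a label was not used, and 92 spike-in rows (1.33% of member counts) were left out. Counts were summed per strain label and cluster (at least 3 cells on both sides, 3 strains) and fitted with edgeR 4.0.16 in R 4.3.3 (quasi-likelihood test, TMM, filterByExpr, strain as block, Benjamini-Hochberg adjustment over 15268 genes). Where the study tested single cells, these fits compare sums, and the p-values measure only the spread among strain-level sums. The block pairs clusters sorted from the same strains, and the correlations of paired deviations were 0.105, 0.0974 and 0.104. Fold changes are edgeR's and the SE is that of the differences in log2 CPM, so the scales differ for genes near 0. Detection means at least 100 counts per 500000. Exact binomial intervals used scipy 1.17.1 and Python 3.11.15. The procedure was tested on simulated data.

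Named genes were the 12 largest changes in each direction (called, same direction in each strain, mean of at least 5 log2 CPM in the higher cluster), up to 4 members of each of 29 lists, and the names used for the clusters and the sort. This gave 99 of the 162 genes tabulated, and the other 63 were chosen after their values were seen. Of the called genes, 2 are not reported here, 1 of them among the 12 largest changes of cluster 6. Members and lists were chosen with earlier results of these data known. Alternatives were other size factors, DESeq2 1.42.0, no filter, no block, plates as the unit, equal cell numbers, equal weights per cell, 5 strains, and leaving out each strain.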

Additional observations from a re-analysis of the deposited data

Results flagged for a closer look

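Of 136 named genes that were called, 134 were screened over 5 plates for a plate whose difference between the clusters (log2, cluster 1 minus cluster 6) lay far from the other 4 by Dixon's criterion, and 12 were found. Chance flags about 1 in 20 such groups. No explanation was tested.

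The gastrocnemius plate of PdgfrbGFP held the outlying value for 9 genes, and its member sums of 2186014 and 2837942 counts came from 16 and 23 cells. Differences were smaller there for Cbln2 (0 against 6.51 to 7.75), Comp (-2.37 against -5.31 to -4.79), Nkd2 (-1.84 against -6.35 to -5.44) and Rps6ka1 (-5.79 against -7.77 to -7.29). They were larger there for Igfbp7 (-2.88 against -1.85 to -1.61), Procr (5.47 against 3.52 to 3.69), Ptges (-2.96 against -1.42 to -1.26), Smoc2 (-3.65 against -2.75 to -2.64) and Svep1 (-2.83 against -1.50 to -1.05). All but Cbln2, which had no difference, kept the direction of the other plates.

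The soleus plate of the pool was the outlying one for Meox1, at -5.27 against -9.15 to -8.22, and for Lamb1, at -0.0013 against 1.05 to 1.42. Another PdgfrbGFP plate was so for Cldn1, at -4.55 against -6.90 to -6.40.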

How the results depend on the processing

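Against 358 called genes (186 higher in cluster 1, 172 in cluster 6), DESeq2 called 1800 (800 and 1000), plates as the unit 681 (327 and 354), and 5 strains 52 (18 and 34). Leaving out 1 strain gave 55 to 296 (33 to 145 and 22 to 151), with 90 without the pool and 55 without PdgfrbGFP. Without the replicate block 455 were called, and 282 of the 358 kept their call. The other settings gave 277 to 439. The 358 kept their direction in every setting but 5 strains, where 357 did. In the fits that left out 1 strain this follows from the same direction in each strain. Among named genes, signs turned for those that were not called: Acta1 with 5 strains (0.93) and without C57BL6 (0.28), Col1a1 with plates (0.00041), Col1a2 with plates (0.040) and without C57BL6 (0.0074), Col3a1 with 5 strains (-0.11), Csf1r with equal cells (1.41) and 5 strains (0.37), Hsd11b1 with plates (-0.17), Hspg2 with 5 strains (-0.086) and without the pool (-0.079), Mme without the block (-0.13) and without the pool (-0.45), and Tppp3 without the block (-0.0039), with plates (-0.051), with equal cells (-0.050) and without C57BL6 (-0.29). Over the fits that left out 1 strain, Acta1 ranged from -1.47 to 0.28, Col1a2 from -0.11 to 0.0074, Hspg2 from -0.079 to 0.33, Mme from -0.45 to 2.25 and Tppp3 from -0.29 to 0.31. Genes per cell fell to 3365 and 3083 after thinning. The causes were not tested.
Over all cells in place of endomysial cells, shares of cluster 1 and cluster 6 were 8.31% and 13.1% (C57BL6), 12.9% each (pool) and 11.1% and 12.9% (PdgfrbGFP), and cluster 6 made up 25.4% in Cspg4dsRED. This follows from the larger denominator.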
